A study of Homo sapiens with 6 samples.

Results

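Notch signaling was examined through 10 genes, chosen by their symbols for their place in the pathway. They are the receptors NOTCH1, NOTCH2 and NOTCH3, the ligands JAG1, JAG2 and DLL1, the DNA-binding protein RBPJ, and the target genes HES1, HES4 and HEY1. All 10 were found among the 23228 genes of the count tables, and all 10 were among the 12796 genes with enough reads to be tested. The cells were MDA-MB-231, a human cell line established from a triple negative breast cancer (TNBC). The 3 control libraries came from cells that stably express a non-targeted shRNA. The 3 PELP1-KD libraries came from cells that stably express a PELP1 shRNA. PELP1 is a coregulator of nuclear receptors and other transcription factors. Both groups were made with lentivirus and puromycin selection and were grown in RPMI medium with serum, and a single PELP1 shRNA construct was used. The labels do not say that replicates came from separate cultures, so the p-values measure the spread between these libraries, which may be technical.

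Notch receptors are cut while they pass through the Golgi and reach the cell surface as a pair of joined chains. A Jagged or Delta-like ligand on a neighboring cell pulls on the receptor, an ADAM protease cuts it outside the membrane, and gamma-secretase then cuts it inside. The freed intracellular part enters the nucleus and binds RBPJ, which without it holds target genes silent. The HES and HEY targets are basic helix-loop-helix repressors, and HES1 also represses its own gene. In breast cancer, JAG1 and the receptors are known for roles in tumor growth and in stem-like cells.

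PELP1 itself was at 57.2, 56.1 and 60.2 CPM (reads scaled to library size with TMM factors) in the controls and at 28.6, 29.9 and 30.3 CPM in the PELP1-KD libraries. Its log2 fold change (log2FC), PELP1-KD against control, was -0.97 with a standard error (SE) of 0.055 (adjusted p-value 1.48e-11). Between 17304864 and 23132102 reads per library were counted on genes, and 3 reads, taken as the floor of detection, came to between 0.127 and 0.177 CPM. In a principal component analysis, the first component (71.5% of the variance) separated the groups, and control replicate 1 stood apart from the other 5 libraries on the second, so values without it are given where it decides a result. The 4 markers of a mesenchymal type of breast line, VIM, CD44, CAV1 and AXL, summed to between 5517 and 5603 CPM in the controls and between 4617 and 4653 CPM in PELP1-KD cells, and all 4 were lower in PELP1-KD cells. The 6 luminal markers summed to between 126 and 131 CPM in the controls and between 129 and 145 CPM in PELP1-KD cells. Most of this was ERBB2, which averaged 113 CPM in the controls and 118 CPM in PELP1-KD cells. EPCAM averaged 9.46 and 9.57 CPM, and GATA3 averaged 6.98 and 8.08 CPM. None of these passed the test. ESR1, PGR and CDH1 had at most 4 reads in any library and were not tested. The 3 endothelial markers summed to between 0.296 and 0.676 CPM in the controls and between 0.923 and 1.17 CPM in PELP1-KD cells. Of these, VWF had 1, 6 and 0 reads in the controls and 12, 20 and 16 reads in PELP1-KD cells. It rose at a log2FC of 2.56 (adjusted p-value 6.99e-04). With control reads this near the floor, the size of the rise was uncertain. The log2FC was 2.04 without control replicate 3 and 4.42 without control replicate 2. The other endothelial markers, PECAM1 and CDH5, had at most 7 reads in any library and averaged 0.221 and 0.142 CPM in the controls and 0.199 and 0.109 CPM in PELP1-KD cells, so the higher sum rested on VWF. The immune markers had at most 2 reads in any library, and the defining PTPRC had none. Both neural markers, MAP2 and SYP, had between 7 and 26 reads. MAP2 did not pass the test, and SYP had too few reads to be tested. In bulk RNA, fewer cells that express a gene and less RNA per cell cannot be told apart.

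At an adjusted p-value below 0.05, 2 members were lower (JAG1 and RBPJ) and 2 were higher (NOTCH3 and HES1) in PELP1-KD cells. Of all tested genes, 24.2% were lower and 22.7% were higher at this threshold. A total of 4 of the 10 members (40.0%) therefore stood beside 46.9% of all tested genes, so the number of changed members was near the background. No member also passed a log2FC beyond 1, which 3.24% of all tested genes did. In these 4 members, the PELP1-KD libraries did not overlap the controls, and in the other 6 they did. Groups that did not overlap were found in 55.0% of all tested genes. The median log2FC of the members was -0.08, where that of all tested genes was 0.0014. Each role held both a member that passed the test and a member that did not, apart from RBPJ, which is alone in its role. With libraries scaled by their totals in place of TMM, 61.2% of all genes past the threshold were higher, against 48.3% with TMM, and the 4 members passed in the same directions.

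**Figure D1:**
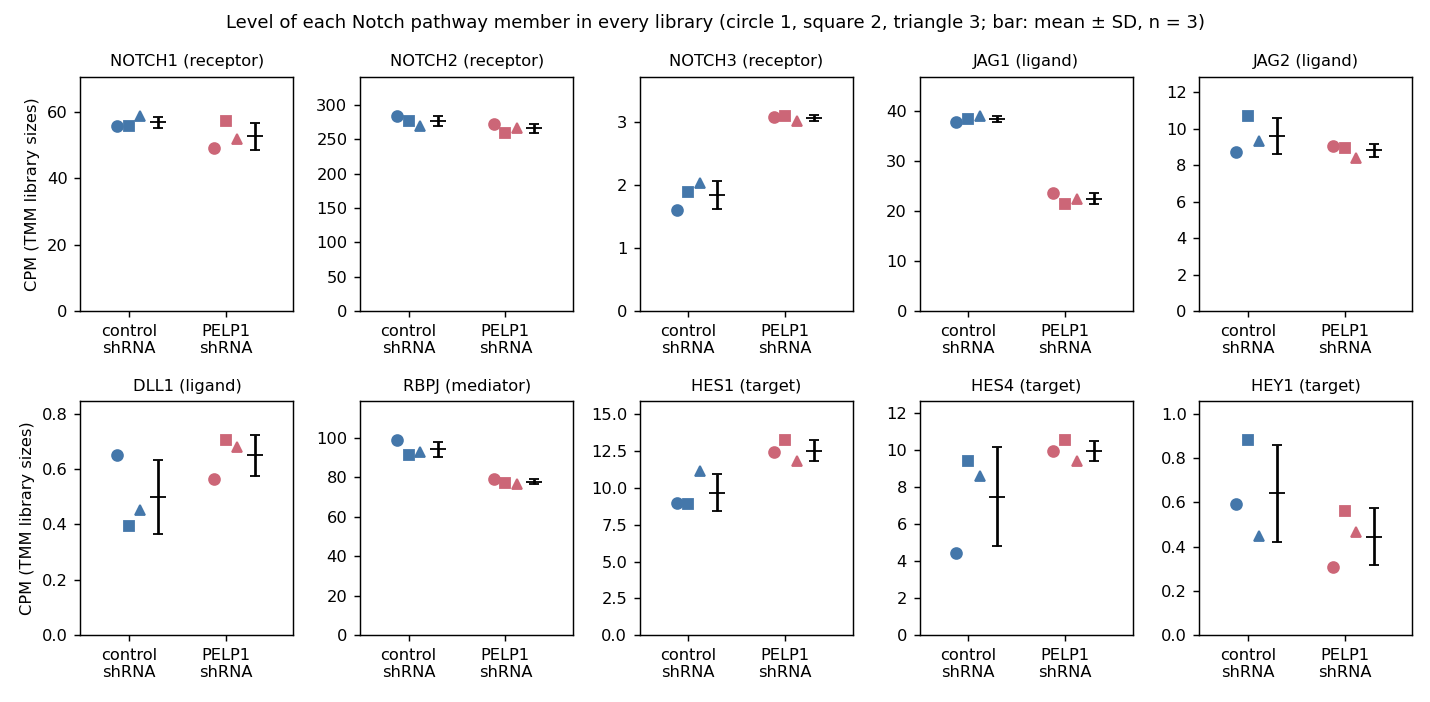
Each panel plots a member's level in CPM (vertical axis, from 0) in the 3 control shRNA and 3 PELP1 shRNA libraries, with the mean ± SD beside each group. JAG1 and RBPJ lie lower and NOTCH3 and HES1 higher in every PELP1-KD library, and control replicate 1 of HES4 lies apart at 4.43 CPM.

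JAG1, the ligand known for signaling to all of the main Notch receptors, had the lowest p-value and the largest change of the members. It was at 37.8, 38.5 and 39.0 CPM in the control libraries and at 23.7, 21.5 and 22.4 CPM in the PELP1-KD libraries. Every PELP1-KD library was below every control, with a gap far wider than the spread within either group. JAG1 fell by 41.4%, at a log2FC of -0.77 (SE 0.061, adjusted p-value 2.30e-09). The exact permutation test over libraries gave a two-sided p of 0.1, the smallest that 3 against 3 allow. Over 13 alternative fits, its log2FC stayed between -0.80 and -0.72, past the threshold in each.

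JAG2, the other Jagged ligand, was at 8.75, 10.7 and 9.35 CPM in the controls and at 9.08, 8.95 and 8.41 CPM in PELP1-KD cells. The groups overlapped, and its log2FC of -0.14 had a 95% interval from -0.33 to 0.06 (adjusted p-value 0.289). It was -0.04 without control replicate 2. In PELP1-KD cells the level per length (RPKM) of JAG1 was 1.80, 1.65 and 1.83 times that of JAG2, where the controls gave 2.97, 2.47 and 2.87. The ratio was lower in each PELP1-KD library than in each control, and its size depends on the length taken for each gene.

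DLL1, a Delta-like ligand, was near the floor, with 11, 9 and 8 reads in the controls and 11, 15 and 16 reads in PELP1-KD cells. Its log2FC of 0.41 had a 95% interval from -0.26 to 1.09 (adjusted p-value 0.342), so a change of either sign was not detectable at this depth. The estimate was 0.63 without control replicate 1 and 0.25 without control replicate 2. DLL1 overlaps FAM120B on the opposite strand, and whether the counting used strand is not given in the sources used here. DLL3, an atypical ligand that does not activate the receptor, had no read in any library, which allows up to 0.177 CPM. DLL4 had between 0 and 3 reads.

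Summed over JAG1, JAG2, DLL1, DLL3 and DLL4, the ligand level was 5.65, 5.94 and 5.81 RPKM in the controls and 4.18, 3.93 and 3.96 RPKM in the PELP1-KD libraries. JAG1 made up 71.3% ± 1.43 (SD, n = 3) of this sum in control cells and 60.3% ± 1.28 (SD, n = 3) in PELP1-KD cells. The share of JAG2 was 25.8% ± 2.04 (SD, n = 3) and 34.3% ± 1.23 (SD, n = 3), while its own level did not pass the test. With the longest transcript as the length, JAG1 was at 6.47 and JAG2 at 1.64 RPKM in control cells. The size of these shares therefore depends on the length used.

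NOTCH3, a receptor best known from vascular smooth muscle, was the member with the largest rise. It had 27, 43 and 36 reads in the control libraries and 60, 66 and 71 reads in the PELP1-KD libraries. This was 1.60, 1.89 and 2.03 CPM against 3.08, 3.09 and 3.02 CPM, and the PELP1-KD libraries lay close together above all controls. The level was 1.67 times that of control cells, at a log2FC of 0.73 (SE 0.174, adjusted p-value 0.00175), and the two-sided exact permutation test gave a p of 0.1. Without control replicate 1, the lowest of the 6 libraries, the log2FC was 0.65 (adjusted p-value 0.00676).

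NOTCH2, the most abundant receptor, was at 284, 277 and 269.8 CPM in the controls and at 272, 259 and 267 CPM in PELP1-KD cells. Its log2FC of -0.06 had a 95% interval from -0.12 to 0.01 (adjusted p-value 0.156), and the groups overlapped. NOTCH2 shares near-identical sequence with NOTCH2NL, a human copy of its first part, and reads that align to more than a single place were counted on no gene, so both are uncertain there. NOTCH2NL averaged 17.9 ± 1.14 CPM in the controls against 17.9 ± 0.551 CPM after PELP1 knockdown (SD, n = 3 each).

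NOTCH1, the receptor best known from T-cell leukemia, was at 55.8, 55.8 and 58.7 CPM in the controls and at 49.0, 57.1 and 51.7 CPM in PELP1-KD cells. PELP1-KD replicate 2 lay within the controls, and the other two PELP1-KD libraries lay below them. The log2FC of NOTCH1 was -0.11 (SE 0.057, adjusted p-value 0.126). Without PELP1-KD replicate 2 it was -0.17 and passed the threshold (adjusted p-value 0.0226), and without PELP1-KD replicate 1 it was -0.06 (adjusted p-value 0.467). NOTCH4, the fourth receptor and no member of the 10, had between 13 and 40 reads, at a log2FC of 0.50 (adjusted p-value 0.0996), or 0.30 without control replicate 1.

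NOTCH2 made up 74.0% ± 1.17 (SD, n = 3) of the summed RPKM of the 4 receptors in control cells and 74.0% ± 1.75 (SD, n = 3) in PELP1-KD cells. NOTCH1 made up 24.6% ± 0.941 and 23.7% ± 1.87 (SD, n = 3 each). NOTCH3, for all its rise, went from 0.880% ± 0.114 to 1.52% ± 0.0191 (SD, n = 3 each) of the receptor sum. The sum itself was 22.3 RPKM ± 0.224 (SD, n = 3) in control cells and 21.4 RPKM ± 0.0294 (SD, n = 3) in PELP1-KD cells. The receptor shares and sum depend on the length too. With the longest transcript, NOTCH2 was at 24.3 and NOTCH1 at 6.10 RPKM in control cells.

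RBPJ, which binds DNA and recruits either corepressors or the Notch intracellular part, was at 98.6, 91.0 and 92.9 CPM in the controls. In PELP1-KD cells it was at 79.1, 76.9 and 76.8 CPM, below every control library. It fell by 17.6%, at a log2FC of -0.28 (SE 0.045, adjusted p-value 3.41e-05), and the two-sided exact permutation test gave a p of 0.1. RBPJ has processed pseudogenes in the annotation, and reads shared with them were counted on no gene.

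The target genes of RBPJ are known for the word TGGGAA in their promoters, the core of its binding site. Windows of 250 bases before the transcript start were taken from RefSeq on GRCh38.p14, where 8 of the 10 members had an entry. The word was searched on both strands (as TGGGAA or TTCCCA, which do not overlap each other). It was found in 20.8% of all 35116 windows, and 2 or more times in 2.9%. Among the members it was found at HES1, HES4 and RBPJ, the last in 1 of its 5 windows. The HES1 window and this RBPJ window each held the word 2 times. The windows of HES1, HES4 and HEYL, the tested HES and HEY genes with a window that holds it, are shown. They stand with that of JAG1, the member that changed most, which has none. Capitals mark the word. HES3, HES5, HEY2 and HELT, with at most 10 reads in any library, hold it too. The HES1 window is chr3:194135898-194136147 on the plus strand, and those of HES4 (chr1:1000098-1000347), HEYL (chr1:39639644-39639893) and JAG1 (chr20:10674000-10674249) are on the minus strand.
HES1: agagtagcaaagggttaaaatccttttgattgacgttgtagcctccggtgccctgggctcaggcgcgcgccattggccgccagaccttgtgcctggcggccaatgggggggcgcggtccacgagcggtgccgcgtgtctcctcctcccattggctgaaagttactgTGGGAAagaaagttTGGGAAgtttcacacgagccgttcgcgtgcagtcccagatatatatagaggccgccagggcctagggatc
HES4: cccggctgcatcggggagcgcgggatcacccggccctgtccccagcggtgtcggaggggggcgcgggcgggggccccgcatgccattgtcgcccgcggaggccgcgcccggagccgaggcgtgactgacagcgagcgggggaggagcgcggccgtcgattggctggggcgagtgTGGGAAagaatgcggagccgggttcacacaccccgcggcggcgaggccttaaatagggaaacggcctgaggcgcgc
HEYL: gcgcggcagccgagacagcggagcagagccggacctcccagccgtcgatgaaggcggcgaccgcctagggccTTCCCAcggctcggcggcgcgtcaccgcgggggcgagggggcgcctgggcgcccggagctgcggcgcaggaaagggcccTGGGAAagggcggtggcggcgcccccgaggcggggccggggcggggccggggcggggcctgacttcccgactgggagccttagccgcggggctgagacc
JAG1: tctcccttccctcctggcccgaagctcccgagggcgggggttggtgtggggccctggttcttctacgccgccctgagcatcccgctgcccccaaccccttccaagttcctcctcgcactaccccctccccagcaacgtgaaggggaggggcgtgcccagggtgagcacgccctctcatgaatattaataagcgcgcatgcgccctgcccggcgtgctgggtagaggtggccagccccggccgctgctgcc
In HES1 the words begin 84 and 70 bases before the start, both in the forward direction. In HES4 a single word begins 76 bases before the start, and in HEYL a reverse word begins at 178 bases and a forward word at 99 bases. A match is a description of the letters and not a measured site, and none of these data show binding.

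HES1 is the target gene by which Notch activity is most often read. It was at 8.99, 8.93 and 11.1 CPM in the controls and at 12.4, 13.2 and 11.8 CPM in PELP1-KD cells. Control replicate 3 lay close below the lowest PELP1-KD library, and the groups did not overlap. The PELP1-KD level was 1.29 times that of control cells, at a log2FC of 0.37 (95% interval from 0.17 to 0.56, adjusted p-value 0.00474), with a two-sided exact permutation p of 0.1. Over 13 alternative fits the log2FC stayed between 0.30 and 0.47, with adjusted p-values from 8.63e-04 to 0.036. JAG1 and RBPJ were lower in PELP1-KD cells, and a link between their change and that of HES1 was not tested.

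HES4, a relative of HES1, was at 4.43, 9.42 and 8.56 CPM in the controls and at 9.95, 10.5 and 9.39 CPM in PELP1-KD cells. Control replicate 1 was the lowest library by far, and control replicate 2 overlapped the PELP1-KD group. The log2FC was 0.38 (SE 0.161, adjusted p-value 0.058). Without control replicate 1 it was 0.13 (adjusted p-value 0.32), without control replicate 2 it was 0.60 (adjusted p-value 0.00726), and without control replicate 3 it was 0.46 (adjusted p-value 0.0315).

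HEY1, a target of the HEY family, had 10, 20 and 8 reads in the controls and 6, 12 and 11 reads in PELP1-KD cells. The groups overlapped, and the 95% interval of its log2FC of -0.55 ran from -1.28 to 0.19 (adjusted p-value 0.242), so a change was not detectable at this depth. Control replicate 2 weighed most on this estimate, which was -0.20 without it (adjusted p-value 0.742), and it was -0.36 without PELP1-KD replicate 1.

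**Figure D2:**
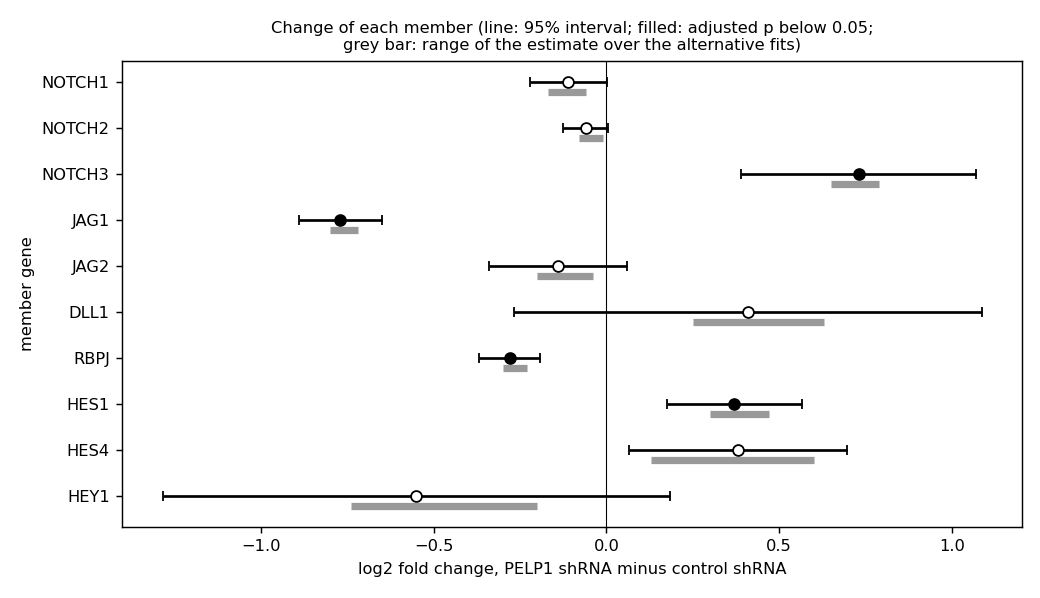
The log2FC of each member (horizontal axis) is plotted with its 95% interval, filled where the adjusted p-value was below 0.05, and a grey bar gives the range of the estimate over the alternative fits. The intervals of NOTCH2 and RBPJ are narrow and those of DLL1 and HEY1, with few reads, are wide, and the grey bar of HES4 runs from 0.13 to 0.60.

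Compared by RPKM, which divides CPM by the length of the exons in kilobases, the control levels ran from NOTCH2 at 16.5 down to DLL1 at 0.155. RBPJ followed NOTCH2 at 10.2, and HES4 at 6.68, NOTCH1 at 5.47, HES1 at 4.69 and JAG1 at 4.13 RPKM came next. The 3 control libraries of HES4, from 3.97 to 8.42 RPKM, spanned those of NOTCH1, HES1 and JAG1, and NOTCH1 overlapped HES1, so HES4 could not be ordered against these genes nor NOTCH1 against HES1. JAG2 was at 1.50 RPKM, and HEY1, NOTCH3 and DLL1 lay between 0.123 and 0.272 RPKM and overlapped. In PELP1-KD cells HES4 overlapped RBPJ, JAG1 stood below NOTCH1 and above JAG2 with a level of 2.42 RPKM, and NOTCH3 at 0.326 RPKM stood above DLL1 and HEY1 without overlap. With the longest transcript as the length of each gene, JAG1 was at 6.47, HES1 at 6.13 and NOTCH1 at 6.10 RPKM in control cells, so the order among these depends on the length used.

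**Figure D3:**
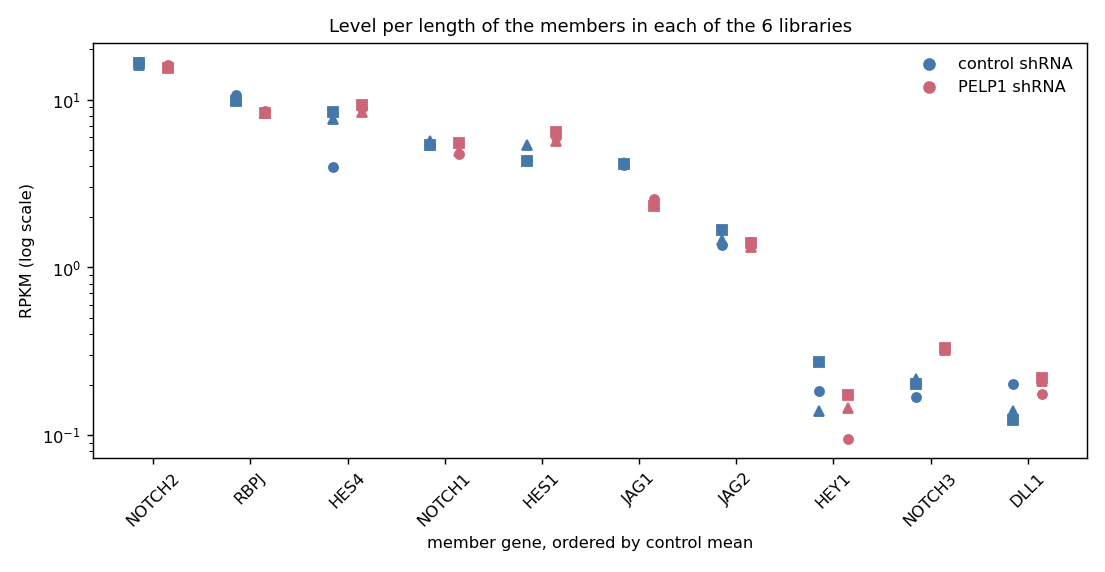
The level per length of each member is plotted in RPKM on a log scale for every library, ordered by the control mean, with the control libraries to the left of the PELP1-KD libraries. NOTCH2 and RBPJ stand at the top, JAG1 drops from 4.13 to 2.42 RPKM, and NOTCH3, DLL1 and HEY1 lie below 0.4 RPKM.

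Base composition moved with the group difference in these libraries. The GC content of each gene's longest transcript was found for 88.3% of the tested genes, which were split into 10 deciles. The median log2FC ran from -0.160 in the decile with the lowest GC content to 0.130 in the highest. In the highest decile, control replicate 1 deviated from its group mean by a median of -0.087 on the log2 scale, and the other 5 libraries by between -0.028 and 0.055. RBPJ, with 38.0% GC, lay in the lowest decile, where 49.3% of the genes were lower and the median was -0.16, which is 0.12 above its own log2FC. NOTCH3, with 63.1% GC, lay 0.60 above the median of the highest decile. HES4, with 73.9% GC, lay in that decile too, as did NOTCH1 and JAG2. These members, which did not pass the test, differed from its median by 0.25, -0.24 and -0.27, more than RBPJ did from its own. JAG1 and HES1, with 49.6% and 49.9% GC, lay in a decile with a median of 0.02, from which they differed by -0.80 and 0.34. The part of base composition in the changes was not tested.

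**Figure D4:**
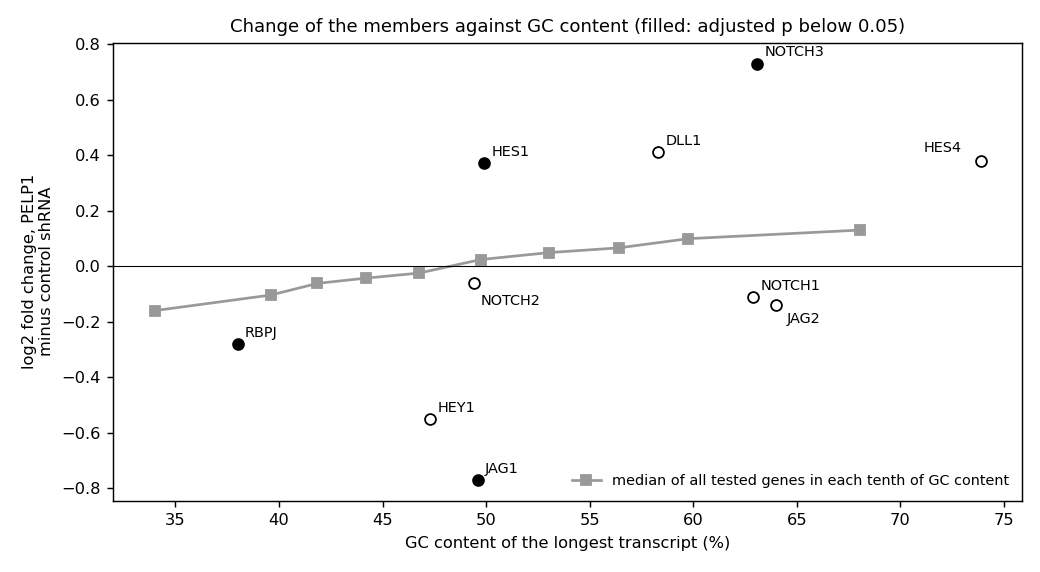
The log2FC of each member (vertical axis) is plotted against the GC content of its longest transcript in percent, with grey squares for the median of all tested genes in each decile. JAG1, NOTCH3 and HES1 differ from the median of their decile by -0.80, 0.60 and 0.34. HEY1 and DLL1, which did not pass the test, differ by -0.52 and 0.31. RBPJ lies 0.12 below the median of its decile, a smaller difference than those of NOTCH1, JAG2 and HES4, which did not pass the test.

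HEYL, a HEY relative outside the 10 members, was at 5.09, 4.62 and 4.96 CPM in the controls and at 6.41, 6.61 and 5.65 CPM in PELP1-KD cells, without overlap. Its log2FC was 0.35 (SE 0.122, adjusted p-value 0.0234). It did not pass without control replicate 2 (0.30, adjusted p-value 0.0938), without PELP1-KD replicate 1 (0.33, adjusted p-value 0.0647), without PELP1-KD replicate 2 (0.30, adjusted p-value 0.0868), or by DESeq2 (adjusted p-value 0.0925).

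HES6, known as an inhibitor of HES1, was at 7.92, 9.81 and 10.9 CPM in the controls and at 11.6 CPM in each PELP1-KD library. Its log2FC of 0.27 (adjusted p-value 0.0357) lost the threshold when any library but control replicate 3 was left out, with the lowest value, 0.17 (adjusted p-value 0.178), without control replicate 1 and the others between 0.27 and 0.29 (adjusted p-values from 0.0602 to 0.079). By DESeq2 its adjusted p-value was 0.0842. HES6 lies in the decile of genes with the highest GC content, 0.14 above its median log2FC. HES7 had between 7 and 20 reads (log2FC 0.60, adjusted p-value 0.156), and HES2 had between 21 and 56 (log2FC -0.09, adjusted p-value 0.776). HEY2 had between 2 and 10 reads, and HES3, HES5 and HELT had at most 1 in any library.

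The rest of the pathway was read from a list of 70 genes in 8 roles, none of them a member, of which 60 were tested. At an adjusted p-value below 0.05, 10 fell and 14 rose in PELP1-KD cells. This is 40.0% of the 60, beside 46.9% of all tested genes, and the median log2FC of the list was 0.02. By role, 55.6% of the cleavage enzymes, 50.0% of the glycosylation genes, 25.0% of the coactivators and 30.8% of the tested corepressors passed. So did 38.5% of the tested ubiquitin and trafficking regulators, 50.0% of the tested other HES and HEY genes and 60.0% of the other known targets. No role held more than 13 tested genes, and these shares were not tested against that of all genes. By DESeq2, 6 were lower and 9 higher. With library totals, 4 were lower and 19 higher. Without control replicate 2 the number higher was 8, and without PELP1-KD replicate 2 the number lower was 6.

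Among the 9 enzymes and subunits that cut the receptor, 3 were lower and 2 were higher. ADAM17, a protease that sheds receptors and ligands, went from 80.7, 79.0 and 79.5 CPM in the controls to 56.9, 53.6 and 51.8 CPM, a log2FC of -0.56 (SE 0.048, adjusted p-value 7.80e-09). ADAM10, the protease known for the ligand-induced cut, averaged 214 ± 9.75 CPM in the controls against 202 ± 8.85 CPM after PELP1 knockdown (SD, n = 3 each, adjusted edgeR p-value 0.11). FURIN, which cuts the receptor in the Golgi, rose from 154, 154 and 155 CPM to 209, 225 and 215 CPM, a log2FC of 0.49 (SE 0.036, adjusted p-value 8.81e-10). Of the gamma-secretase subunits, APH1B rose at a log2FC of 0.43 (adjusted p-value 2.79e-04), and NCSTN fell by 0.13 on the log2 scale (adjusted p-value 0.00383), but NCSTN did not pass with library totals (adjusted p-value 0.0612).

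Among the 6 genes that add sugars to the receptor, 2 of the 3 Fringe glycosyltransferases rose, LFNG at a log2FC of 0.34 (adjusted p-value 7.01e-04) and RFNG at 0.33 (adjusted p-value 3.19e-04). The third, MFNG, had between 8 and 18 reads and a log2FC of 0.41 (adjusted p-value 0.304). POGLUT1, which adds glucose, fell by 0.21 on the log2 scale (adjusted p-value 0.0228), but did not pass without control replicate 3 (-0.14, adjusted p-value 0.161), PELP1-KD replicate 1 (0.0763) or PELP1-KD replicate 2 (0.0601), by DESeq2 (0.0522) or with library totals (0.0769). LFNG and RFNG lie in the decile of genes with the highest GC content, 0.21 and 0.20 above its median log2FC.

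Of 8 coactivators of the RBPJ complex, MAML1 and EP300 were lower, with a log2FC of -0.12 and -0.14 (adjusted p-values 0.0265 and 0.0278), and none was higher. The share lower, 25.0%, was near the 24.2% of all tested genes. MAML1 did not pass without control replicate 3, PELP1-KD replicate 2 or PELP1-KD replicate 3 (adjusted p-values from 0.0714 to 0.0871). EP300 did not pass without control replicate 1 or 2 or PELP1-KD replicate 1 or 2 (adjusted p-values from 0.062 to 0.0876). Neither passed by DESeq2 (0.0523 and 0.0646) or with library totals (0.178 and 0.139). Of 13 tested corepressors, 2 were lower and 2 were higher. Among them, CTBP2 and NCOR1 fell by 0.24 and 0.12 on the log2 scale (adjusted p-values 3.66e-04 and 0.0094), and HDAC1 rose at a log2FC of 0.12 (adjusted p-value 0.00786). HDAC1 did not pass without control replicate 2 (adjusted p-value 0.0685), nor NCOR1 with library totals (0.103).

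Of 13 tested regulators of ubiquitin transfer and trafficking, MIB1 was lower and 4 were higher. MIB1, the ligase that lets ligands be taken up and so pull on the receptor, had a log2FC of -0.27 (adjusted p-value 2.05e-04). It lies in the decile of genes with the lowest GC content, 0.11 below its median log2FC. DTX3, of the Deltex family, rose at a log2FC of 0.36 (adjusted p-value 0.00228). NEURL1, a Neuralized ligase, had 5, 5 and 9 reads in the controls and 14, 18 and 14 reads in PELP1-KD cells, a log2FC of 1.10 (SE 0.388, adjusted p-value 0.0252). It did not pass without control replicate 1 (1.03, adjusted p-value 0.0583), without control replicate 2 (0.81, adjusted p-value 0.141), without PELP1-KD replicate 1 (1.10, adjusted p-value 0.0565), without PELP1-KD replicate 2 (0.96, adjusted p-value 0.0942), or by DESeq2 (adjusted p-value 0.119). NRARP, a feedback inhibitor that Notch induces in many cells, averaged 4.65 ± 0.687 CPM in the controls against 5.08 ± 0.369 CPM after PELP1 knockdown (SD, n = 3 each, adjusted edgeR p-value 0.432), and DTX1, another such gene, had no read.

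Of the 5 other genes known as Notch targets in some cells, CCND1, a G1 cyclin, was lower and CDKN1A, an inhibitor of cyclin-dependent kinases, and MYC were higher. CCND1 went from 634, 626 and 639 CPM in the controls to 435, 429 and 437 CPM, a log2FC of -0.55 (SE 0.027, adjusted p-value 1.74e-12). CDKN1A went from 65.0, 71.3 and 66.8 CPM to 106, 114 and 109 CPM, a log2FC of 0.69 (SE 0.047, adjusted p-value 1.78e-10). MYC differed by a log2FC of 0.09 (adjusted p-value 0.0376), and lost the threshold by DESeq2 (0.0551) and without any library but PELP1-KD replicate 3 (adjusted p-values from 0.0602 to 0.135). SNAI2 and GATA3 did not pass the test, with a log2FC of -0.15 and 0.21, although GATA3 passed with library totals (adjusted p-value 0.0454). SNAI2 ranged from -0.09 without control replicate 1 (adjusted p-value 0.288) to -0.20 without control replicate 3 (adjusted p-value 0.0399). DLK2, a non-canonical relative of the ligands, averaged 19.7 ± 1.02 CPM in the controls against 19.8 ± 0.339 CPM after PELP1 knockdown (SD, n = 3 each), and DLK1 had no read.

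**Figure D5:**
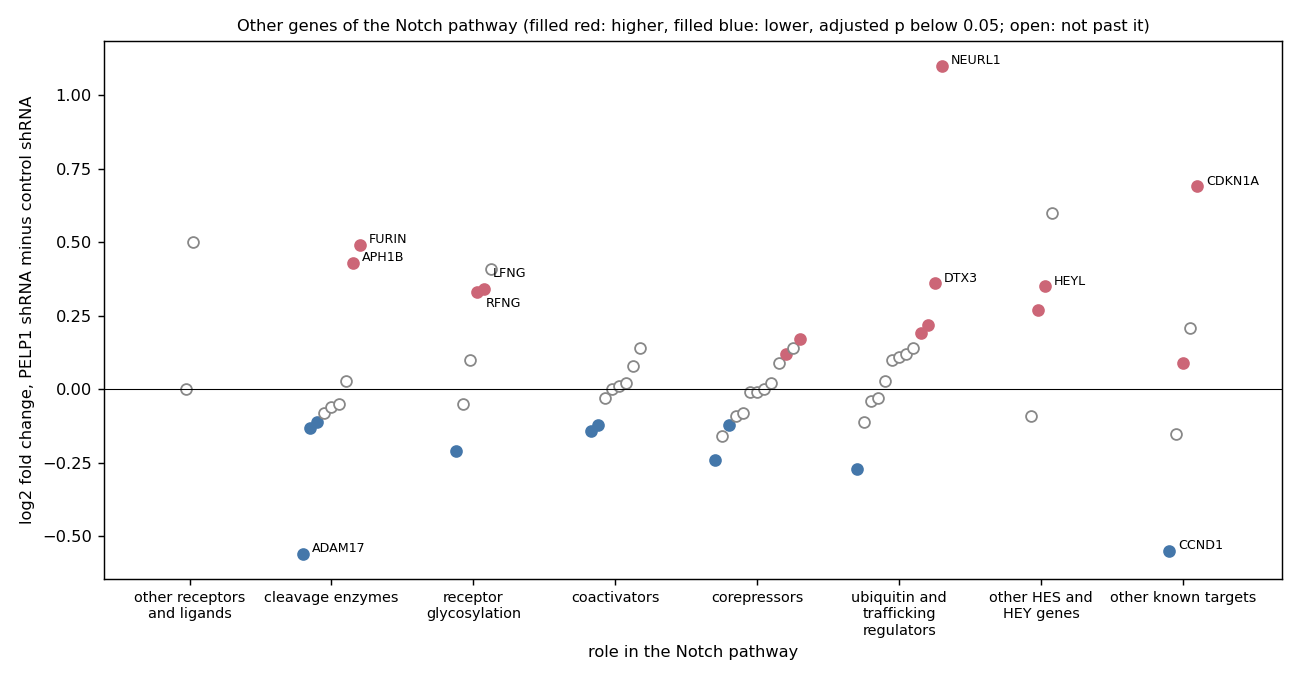
The log2FC of each tested gene of the pathway list (vertical axis) is plotted by role, filled red or blue where it was higher or lower at an adjusted p-value below 0.05 and open where it was not past it. Of 60 genes, 14 are red and 10 are blue, and the cleavage enzymes and the other targets hold changes of over 0.4 in both directions.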

How the data were processed

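RNA-seq counts were analysed for 3 control shRNA and 3 PELP1 shRNA libraries of MDA-MB-231 cells, grouped by the treatment label. The authors deposited raw counts of reads per gene symbol for each library, without normalization. The submitters' processing notes name bcl2fastq, TopHat2, SAMtools and HTSeq and the build hg19, with no version, and the annotation and strand setting are not given in the sources used here. Closing rows that name no gene, 41.0% to 41.4% of the reads listed, were left out.

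Genes passing filterByExpr (minimum count 10) were scaled by TMM and tested with the edgeR 4.0.16 quasi-likelihood test in R 4.3.3, with adjusted p-values by Benjamini-Hochberg over 12796 genes. Standard errors were taken as the size of the log2FC over the root of the F statistic. Permutation tests used log2(CPM + 0.1). RPKM lengths are the union of exons in GENCODE release 29 (GRCh38). All tests were two-sided, and the scripts were tested on simulated data. Alternatives were RLE, library totals, other filters, DESeq2 1.42.0, voom in limma 3.58.1, a test against a log2FC of 1, transcript length, the replicate number as a block and leaving out each library.

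Named genes were PELP1, the 10 members, NOTCH2NL, the 10 largest changes past the threshold in the pathway list, and its other receptors, ligands, HES and HEY genes. Other genes were named after their values were seen, among them ADAM10, the cofactors and the markers. The members and lists were chosen with earlier results of these data known. Counting floors cover counting error alone, since reads are not independent molecules.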

Additional observations from a re-analysis of the deposited data

How the results depend on the processing

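Over the alternative fits that tested against a log2FC of 0, the 4 members past the threshold (JAG1, RBPJ, NOTCH3 and HES1) remained past it in the same direction. Of the counts, that of the pathway list depended most on the fit. It had 10 lower and 14 higher genes, 6 and 9 by DESeq2, and 4 lower with library totals. Leaving out each library in turn gave 6 to 9 lower and 8 to 13 higher in this list, 2 to 3 lower and 2 to 3 higher members, 2723 to 3066 lower and 2459 to 2837 higher of all tested genes, and 0 members with a log2FC beyond 1. A test against a log2FC of 1 also gave 0. The cause of these shifts was not tested. HES4 passed with library totals (adjusted p-value 0.0366), without a filter (0.00176) and by voom (0.0421), but not by DESeq2 (0.32). Same-numbered libraries had deviations from their group means that correlated at 0.039, 0.065 and -0.078, so the numbers were not taken to pair them. With the replicate number as a block, 3 members were higher, HES4 being added (log2FC 0.40, adjusted p-value 0.0082), and 13 genes of the pathway list were lower and 14 higher, ADAM10 (-0.08, adjusted p-value 0.0431) being among those added. Genes with at most 20 reads in any library, such as DLL1 and HEY1, are limited by depth.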
